A study of Mus musculus with 2 samples.

Results

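The genes described here are 6 transcription factors of chemosensory neurons, Ebf1, Ebf2, Ebf3, Ebf4, Lhx2 and Uncx, chosen by name as members of the EBF family and as homeodomain factors of the same neurons, out of the 32285 genes counted. They were followed along the neuronal lineage of the adult mouse vomeronasal organ (VNO), from progenitors and precursors to immature and mature apical and basal vomeronasal sensory neurons (VSNs), and across the non-neuronal cells of the organ. The data came from VNOs of C57BL/6J wild-type males at P60, with no transgene and no treatment. The suspension was frozen and thawed before capture and made into 2 single-cell libraries, which serve as the replicates. The sources do not say how the 5 organs named in the labels were spread over the libraries, and p-values measure the spread between 2 captures, which may be technical. Of 24084 deposited barcodes, 10592 cells passed the limits on genes and mitochondrial UMIs (unique molecular identifiers, 1 per counted RNA molecule), 5694 in library 1 and 4898 in library 2. Median depth was 6668 and 6650 UMIs per kept cell. The libraries shared 33 barcode sequences, of which 3 had both cells kept.

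EBF proteins (early B-cell factors, also called COE or Olf factors) bind DNA through a zinc-coordinating domain and pair through a helix-loop-helix motif. Ebf1 was found both as a factor needed for B cell development and as an activator of genes of olfactory neurons, and Ebf2, Ebf3 and Ebf4 are its paralogs. Lhx2 is a LIM-homeodomain factor needed for the development of olfactory sensory neurons, and its LIM domains bind the cofactor Ldb1, for which the small LIM-only proteins compete. Uncx is a paired-type homeodomain factor known from the axial skeleton and from the developing nervous system. Apical VSNs carry V1R receptors with the G protein Gnai2 and the factor Meis2, and basal VSNs carry V2R receptors with Gnao1 and the factor Tfap2e.

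On mm10 with the GENCODE M21 annotation, Ebf1 (ENSMUSG00000057098) lay at chr11:44617317-45008091 on the plus strand and Ebf2 (ENSMUSG00000022053) at chr14:67233292-67430918 on the plus strand. Ebf3 (ENSMUSG00000010476) lay at chr7:137193673-137314445 on the minus strand and Ebf4 (ENSMUSG00000053552) at chr2:130295169-130370481 on the plus strand. Lhx2 (ENSMUSG00000000247) lay at chr2:38339281-38369733 and Uncx (ENSMUSG00000029546) at chr5:139543494-139548179, both on the plus strand. All 6 are protein-coding. Genes annotated on the opposite strand overlapped Ebf1 (1 gene), Ebf2 (5), Ebf3 (2) and Lhx2 (2), and none overlapped Ebf4 or Uncx. The sources do not state that counting used strand, and without strand the reads of such pairs cannot be told apart. RefSeq start-site windows of 300 bases (250 before to 50 from the start, GRCm38.p6) were at hand for 5 of the 6 genes, 7 windows in all, and were searched on both strands. The palindrome of TCCC and GGGA set apart by any 2 bases, the core letters that EBF proteins bind, was in 0 of the 7 windows and in 297 of 32851 windows of all genes (0.904%). The homeodomain core TAATTA was in 1 of the 7 windows and in 1738 of all windows (5.29%). That window belonged to Uncx, the member with the narrowest range of stages below, and the stretches around its matches are shown for that reason. The matches, in capitals, began 133 and 30 bases before the RefSeq start site on the plus strand. Both lay upstream of 1 of the 2 GENCODE transcripts of Uncx and in the 5′ UTR, exon 1, of the longer one.
Uncx, chr5:139543755-139543780: gtgtcaggtaTAATTAgcaatcgata
Uncx, chr5:139543858-139543883: gggccgcggcTAATTAtcgagagctt
A match describes letters in this window and is no binding site.

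Cells were clustered with all 6 members kept out of the genes that drove the clustering, so a stage was not defined by the RNA it is described with here, although it was defined by other genes of the same cells. The lineage held 79 progenitor-like, 79 precursor-like, 140 transitional, 181 immature apical-like, 158 immature basal-like, 595 mature apical-like and 109 mature basal-like cells, and every one of these classes had cells of both libraries. Several markers followed the names, and some others of the lists used for naming did not. The cell-cycle gene Mki67 stood at 302 CPM (UMIs of a gene scaled to the total UMIs of its class) in progenitor-like and at 30.01 CPM in precursor-like cells, and Neurod1 was highest in precursor-like cells (1692 CPM). The precursor-like class had 4 of 6 precursor markers raised within the lineage, beside 4 ciliated cell and 3 olfactory ensheathing markers. Mcidas, Ccno and Foxj1 were among its leading genes. Gap43, the growth-cone protein of immature neurons, stood at 1401 and 1159 CPM in immature apical-like and basal-like cells against 128 and 168 CPM in mature ones. Omp, of mature neurons, stood at 839 and 756 CPM in mature apical-like and basal-like cells. Meis2 was 2085 CPM in immature apical-like and 38.6 CPM in immature basal-like cells, and Tfap2e was 2.56 and 312 CPM. Of the immature list, Gng8 went the other way, at 675 and 659 CPM in immature apical-like and basal-like cells and 1390 and 1933 CPM in mature ones. Stmn4 of that list was 435 CPM in immature and 589 CPM in mature apical-like cells, and 343 and 344 CPM on the basal branch. Stmn2, also of that list, was higher in transitional (8108 CPM) and precursor-like cells (6953 CPM) than in immature apical-like (6400 CPM) and basal-like ones (6290 CPM). Eya2 of the precursor list was higher in transitional (266 CPM) and immature apical-like cells (236 CPM) than in precursor-like ones (196 CPM). Hes6, a precursor marker that is also on the progenitor list, stood at 1751 CPM in progenitor-like and 1246 CPM in precursor-like cells. The transitional class lay between precursor-like and immature cells, had both Neurod1 (529 CPM) and Gap43 (449 CPM) and carried no branch name. Another 1687 cells stayed unnamed. RNA summed over a class cannot tell fewer expressing cells from less RNA per cell, so shares of cells are given beside the levels.

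Ebf1 RNA was present from the first stage on and was highest in transitional and immature cells. In CPM of library 1 and library 2, it stood at 586 and 830.1 in progenitor-like cells and at 835 and 922 in precursor-like cells. It reached 1875 and 2389 in transitional cells, 2260.3 and 2555 in immature apical-like cells and 1881 and 2392 in immature basal-like cells. In mature apical-like cells it was 1112 and 1313, and in mature basal-like cells 830.1 and 873. The ranges of the 3 high classes overlapped one another and lay above all the others. Mature apical-like cells came next with a range apart from its neighbours, and below it the precursor-like and mature basal-like ranges overlapped. The progenitor-like range ended just below both, its library 2 value equal to that of mature basal-like cells in library 1 to the digits shown. At least 96.2% of cells of every lineage class had a UMI of Ebf1.

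Ebf2 and Ebf3 started low and rose later. Ebf2 stood at 113 and 174 CPM in progenitor-like, 388 and 447 in precursor-like, 413 and 497 in transitional, 407 and 457 in immature apical-like and 246 and 336 in immature basal-like cells. It was 242 and 260.0 CPM in mature apical-like and 188 and 202 CPM in mature basal-like cells. The transitional, immature apical-like and precursor-like ranges of Ebf2 overlapped and lay above the rest. Ebf3 stood at 37.8 and 37.8 CPM in progenitor-like, 278 and 209.9 in precursor-like, 447 and 437 in transitional, 354 and 354 in immature apical-like and 180.1 and 250.3 in immature basal-like cells. It was 126 and 145 CPM in mature apical-like and 109 and 125 CPM in mature basal-like cells. Ebf3 was thus highest in transitional cells in both libraries, with no overlap with any other class. Ebf4 was close to nothing in the lineage: 4 UMIs in immature apical-like cells (2.19 and 3.08 CPM), 1 in progenitor-like and 1 in mature apical-like cells, and 0 in the other 4 classes. With so few UMIs, Ebf4 did not pass the filter of 10 UMIs over the lineage sums and was not tested there.

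Lhx2 peaked earlier than Ebf1. It stood at 349 and 403 CPM in progenitor-like, 2059 and 1670 in precursor-like, 1724 and 1601 in transitional, 1011 and 868 in immature apical-like and 659 and 656 in immature basal-like cells. In mature cells it fell to 281 and 300.4 CPM (apical-like) and 201 and 194 CPM (basal-like). Only the precursor-like and transitional ranges of Lhx2 overlapped, and every other pair of neighbours in the order was separate. Uncx RNA was found mostly in the middle of the lineage. It stood at 5.97 and 2.23 CPM in progenitor-like, 237 and 116 in precursor-like, 243 and 203 in transitional and 41.5 and 40.0 in immature apical-like cells. It had 0 UMIs in immature basal-like and in mature basal-like cells in both libraries, and 0.430 and 1.46 CPM (7 UMIs) in mature apical-like cells. The libraries stood furthest apart in precursor-like cells, where the range of Uncx overlapped that of transitional cells.

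**Figure D1:**
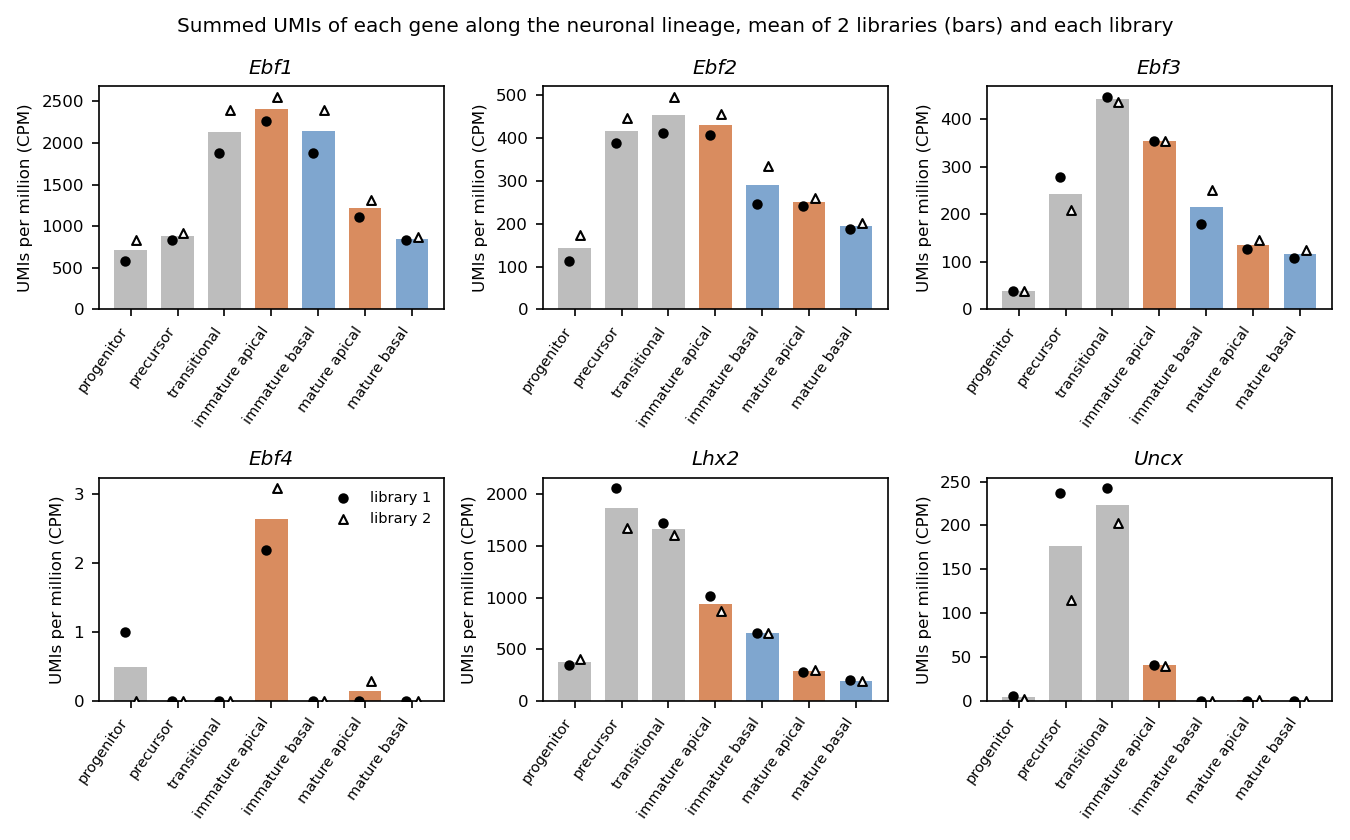
Level of each gene (CPM, linear axis from 0, a separate scale per gene) in the 7 lineage classes, with 1 point per library, circles for library 1 and triangles for library 2, and a bar up to their mean (orange for apical-like, blue for basal-like and grey for the other classes). Ebf1 is highest in transitional and immature classes, Lhx2 in precursor-like and transitional classes, and Uncx is at 0 in immature basal-like and mature basal-like cells in both libraries.

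The first comparison asked which members differ between cycling progenitor-like and precursor-like cells. Of the 6 members, 5 passed the filter on low counts in the lineage, and 4 of them were higher in precursor-like cells by edgeR's quasi-likelihood test on sums per library (adjusted p under 0.05), where 6.15% of the 14233 genes tested were higher and 14.0% changed in either direction. Lhx2 was higher by 2.15 on the log2 scale (SE 0.14, edgeR adjusted p = 2.95e-08), Ebf3 by 2.51 (SE 0.22, edgeR adjusted p = 8.05e-07) and Ebf2 by 1.42 (SE 0.17, edgeR adjusted p = 2.34e-05). Uncx was higher by 5.01 (SE 0.53, edgeR adjusted p = 1.03e-05), on 126 UMIs against 7. Ebf1 differed by 0.16 (95% interval -0.13 to 0.45, edgeR adjusted p = 0.52), which did not pass. The median of the 5 members was 2.15, against -0.09 over all genes. Without the scaling of library sums by trimmed means (TMM), called genes were higher in precursor-like cells in 57.8% instead of 43.9% of calls. The same 4 members passed on that scale. When transitional cells were counted as precursors, Ebf1 was higher by 1.22 (edgeR adjusted p = 6.61e-06), and at a mitochondrial limit of 10% by 0.40 (edgeR adjusted p = 0.0298).

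The 79 progenitor-like cells were not alike in these genes. They were divided, after their values had been seen, by whether a cell had a UMI of the proneural genes Neurog1 or Neurod1. The 34 cells with neither (23 and 11 in the libraries, median 18146.5 UMIs) had the progenitor factor Sox2 in 32 cells, Kit in 24 and Mki67 in 22. Ebf1 was present in all 34 of them, at 475.7 and 475.55 CPM (357 UMIs). In the same cells Lhx2 had 20 UMIs in 6 cells, Ebf2 6 UMIs in 3 cells, Ebf3 4 UMIs in 2 cells and Uncx none. As a guide to free RNA at this depth, gland-like cells (median 18316 UMIs), which should lack these genes, had Ebf1 in 8.59%, Lhx2 in 3.30%, Ebf2 in 2.86% and Ebf3 in 2.42% of cells. The other 45 cells (30 and 15, median 15213 UMIs) had Mki67 in 42 cells. Of these 45 cells, 44 had Ebf1 (715 and 1136 CPM), 40 had Lhx2 (715 and 751 CPM), 39 had Ebf2 (236 and 319 CPM), 22 had Ebf3 (73.5 and 70.5 CPM) and 4 had Uncx. Ebf1 was thus present in cells of both kinds, and Lhx2, Ebf2 and Ebf3 were mostly in cells that also had Neurog1 or Neurod1. Fibroblast markers, all 5 of 5, summed to 314 CPM in progenitor-like cells of library 1 and to 4.45 CPM in library 2, against 25743 and 26406 CPM in stromal-like cells. In the 34 cells the fibroblast gene Dcn stood at 16.6 and 0 CPM. The part of stromal RNA in the Ebf1 level of progenitor-like cells was not tested.

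The step from precursor-like to immature cells, taken as the mean of both immature classes, moved members in opposite directions. Ebf1 was higher in immature cells and Lhx2 and Uncx were lower, so 3 of the 5 members tested passed, where 12.6% of all genes tested were higher and 8.71% lower (21.3% in all). Ebf1 was higher by 1.59 (SE 0.12, edgeR adjusted p = 6.3e-08), a 3.01-fold difference. Lhx2 was lower, with a log2 change of -1.02 (SE 0.11, edgeR adjusted p = 3.57e-06), and Uncx changed by -6.25 (SE 0.59, edgeR adjusted p = 1.82e-06), a mean of logs that includes immature basal-like sums at 0 and so depends on the small count the model adds. Ebf2 changed by -0.02 (95% interval -0.31 to 0.28, edgeR adjusted p = 1). Ebf3 changed by 0.39 (95% interval 0.06 to 0.72, edgeR adjusted p = 0.0925). With transitional cells counted as precursors Ebf3 went the other way, at -0.36 (edgeR adjusted p = 0.045), and with the library as a block its rise passed (edgeR adjusted p = 0.0372). The median was -0.02 over the 5 members and 0.11 over all genes, and -0.07 over all genes without TMM, where 42.5% instead of 59.2% of calls were higher.

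As a part of all UMIs, RNA of these genes was lower in mature than in immature neurons on both branches. Mature cells were deeper, at medians of 13511 (apical-like) and 17162 UMIs (basal-like) against 8900 and 8678.5 in immature ones. The fits compare levels relative to the total, and RNA per cell was not tested. In apical-like cells all 5 members tested were lower in mature cells, where 14.4% of all genes tested were lower and 29.9% changed. Lhx2 changed by -1.68 (SE 0.13, edgeR adjusted p = 3.91e-08), Ebf3 by -1.37 (SE 0.15, edgeR adjusted p = 2.62e-06), Ebf1 by -0.97 (SE 0.13, edgeR adjusted p = 1.25e-05) and Ebf2 by -0.76 (SE 0.14, edgeR adjusted p = 0.000574). Uncx changed by -5.37 (SE 0.54, edgeR adjusted p = 1.62e-06), from 64 UMIs in immature to 7 in mature cells. The median of the members was -1.37, against 0.04 over all genes. In basal-like cells 4 of the 5 were lower, where 12.8% of all genes tested were lower and 27.1% changed. There Lhx2 changed by -1.70 (SE 0.14, edgeR adjusted p = 1.21e-07), Ebf1 by -1.29 (SE 0.13, edgeR adjusted p = 9.35e-07), Ebf3 by -0.83 (SE 0.18, edgeR adjusted p = 0.00172) and Ebf2 by -0.53 (SE 0.16, edgeR adjusted p = 0.0194). Uncx had 0 UMIs on both sides of this comparison and no fold is given. The median of the members, with Uncx counted as no change, was -0.83, against 0 over all genes. Under DESeq2 the Ebf2 difference in basal-like cells did not pass (-0.44, DESeq2 adjusted p = 0.0964). Thinned to 5000 UMIs per cell, the median cell had 12 Ebf1 UMIs in immature apical-like and 6 in mature apical-like cells, and 5 and 1 UMIs of Lhx2.

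Apical and basal cells were compared at each stage. Between the immature branches, 2 of the 5 members tested were higher in apical-like cells, where 1.97% of all genes tested were higher and 4.08% changed. Ebf3 was higher by 0.69 (SE 0.16, edgeR adjusted p = 0.0195), a 1.62-fold difference. Uncx had 64 UMIs in immature apical-like and 0 in immature basal-like cells (edgeR adjusted p = 0.000399), and against a floor of 3 UMIs over both basal-like sums it was at least 19.1-fold higher. Ebf2 (0.54, SE 0.15, edgeR adjusted p = 0.0588) and Lhx2 (0.47, SE 0.13, edgeR adjusted p = 0.0582) lay just outside the threshold, and both passed with the library as a block (edgeR adjusted p = 0.000779 and 0.000375). Ebf1 differed by 0.13 (95% interval -0.13 to 0.40, edgeR adjusted p = 0.737). Where stages were set by marker UMIs instead of clusters, Ebf3 differed by 0.42 (edgeR adjusted p = 0.42). The median of the members was 0.54, against 0 over all genes.

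Between the mature branches, Ebf1 (0.45, SE 0.13, edgeR adjusted p = 0.0347) and Lhx2 (0.50, SE 0.14, edgeR adjusted p = 0.0354) were higher in apical-like cells, 2 of the 5 tested, where 3.48% of all genes tested were higher and 8.09% changed. These are 1.37-fold and 1.41-fold differences, and neither passed with DESeq2 (adjusted p = 0.119 and 0.0965) or with stages set by marker UMIs (edgeR adjusted p = 0.151 and 0.139). Ebf2 differed by 0.31 (95% interval -0.01 to 0.62, edgeR adjusted p = 0.268) and Ebf3 by 0.16 (95% interval -0.19 to 0.51, edgeR adjusted p = 0.681). Uncx had 7 UMIs in mature apical-like and 0 in mature basal-like cells (edgeR adjusted p = 0.432). The median of the members was 0.45, against 0.08 over all genes. The difference between the branches was then itself compared between mature and immature cells by an interaction term in edgeR, which 0 of the 5 members passed and 1.10% of all genes tested did, with Uncx at 0 UMIs in both basal-like classes. DESeq2 gave 0 members too. In edgeR's model Ebf3 was the single member under 0.05 before adjustment (-0.54, SE 0.23, edgeR adjusted p = 0.395). A branch difference that passed at one stage and not at the other is therefore not shown to differ between the stages.

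**Figure D2:**
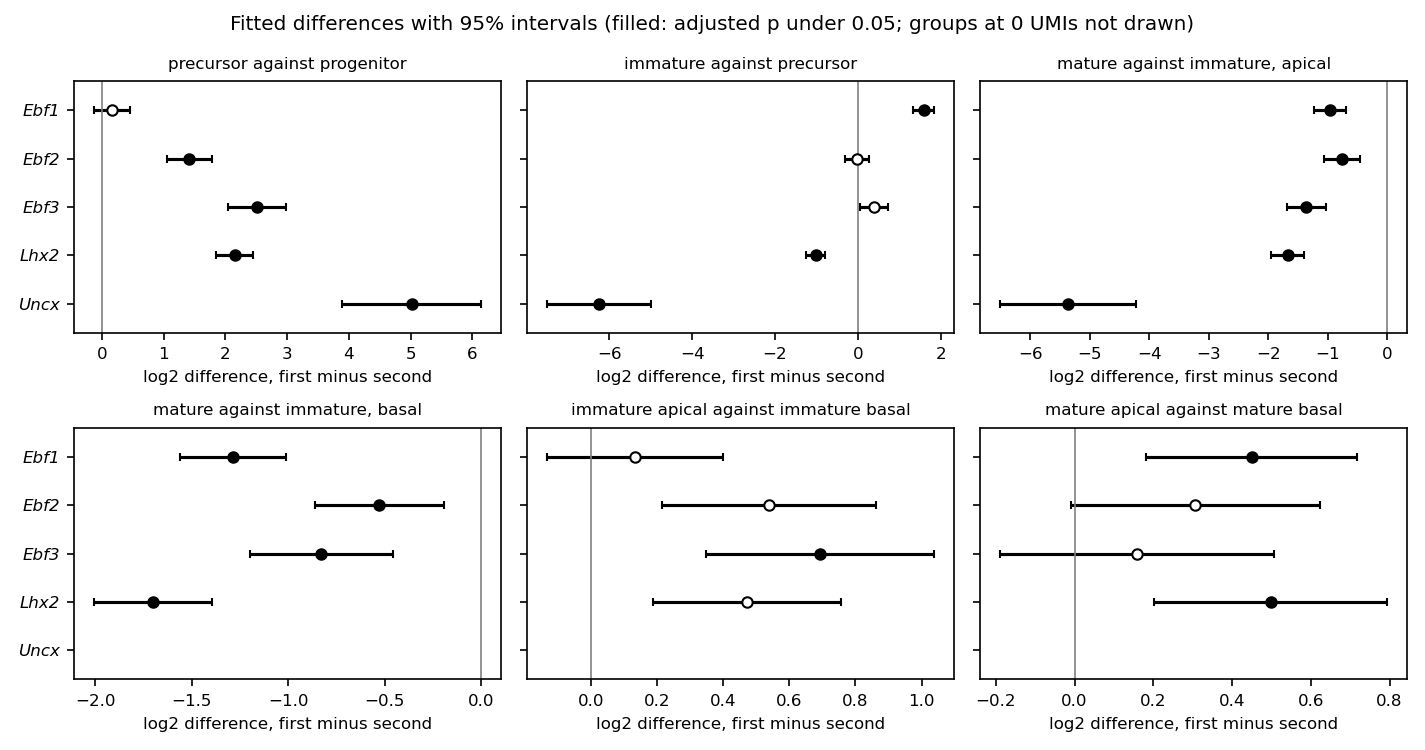
Log2 difference of each member in the lineage comparisons, with 95% intervals from edgeR, filled where the adjusted p was under 0.05, and with Uncx left out of the comparisons in which a group had 0 UMIs. Lhx2, Ebf2, Ebf3 and Uncx lie above 0 for precursor-like against progenitor-like cells and all plotted members lie below 0 for mature against immature cells on both branches, while the points of the branch differences lie between 0.13 and 0.69.

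Uncx was seen in 38 of 79 precursor-like cells (48.1%), 82 of 140 transitional cells (58.6%) and 42 of 181 immature apical-like cells (23.2%). In immature basal-like cells it was seen in 0 of 158, a count that leaves room for up to 1.90%, and in mature basal-like cells in 0 of 109, which leaves room for up to 2.75%. It was seen in 6 of 595 mature apical-like cells (1.01%) and in 2 of 1687 macrophage-like cells (0.119%), a class that should lack it. Median depths were 8954, 8804.5, 8900 and 8678.5 UMIs in precursor-like, transitional, immature apical-like and immature basal-like cells, so the branches were seen at like depth. Thinned to 5000 UMIs, the shares were 42.1%, 50.7%, 17.1% and 0% in the same order. The transitional cells were split by the branch factors. Of 85 transitional cells with Meis2 and no Tfap2e, 57 had Uncx (67.1%, 95% exact interval 56.0 to 76.9), at 266 and 303 CPM. Of 17 with Tfap2e and no Meis2, 7 had it (41.2%, interval 18.4 to 67.1), at 123 and 78.6 CPM, and of 37 with neither, 18 (48.6%, interval 31.9 to 65.6), at 239 and 65.8 CPM. These intervals overlapped, cover counting error only and treat cells as units. Uncx was thus seen in Tfap2e+ cells of the transitional class and in none of the 98 immature basal-like cells with Tfap2e and no Meis2. Where stages were set by marker UMIs, the immature basal group held 15 Uncx UMIs (13.8 and 16.7 CPM) and the mature basal group 0. That grouping also took in transitional cells. The immature basal-like class had 0 Uncx UMIs, so none of those 15 came from it.

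Within a class, cells with and without a Uncx UMI were set side by side as a description. Transitional cells with Uncx had Meis2 at 1938 and 1763 CPM, and those without had it at 1158 and 1014 CPM. Lhx2 was 1729 and 1567 CPM with Uncx and 1716 and 1636 CPM without, ranges that overlapped. Ebf1 was 1866 and 2311 CPM with and 1892 and 2469 CPM without. In precursor-like cells Ebf1 was 718 and 759 CPM with Uncx and 1023 and 1013 CPM without, and the ranges of the libraries did not overlap. Of the immature apical-like cells, the 124 of the larger cluster had Ebf1 at 2589 and 3311 CPM and Lhx2 at 1151 and 997 CPM. The 57 of the smaller one had Ebf1 at 1476 and 1388 CPM and Lhx2 at 677 and 669 CPM. The immature basal-like cells showed a like pair, 101 cells with Ebf1 at 2371 and 2887 CPM and Lhx2 at 735 and 723 CPM, and 57 with Ebf1 at 1308 and 1452 CPM and Lhx2 at 571 and 529 CPM. Each immature branch held a cluster with more and a cluster with less Ebf1 and Lhx2, while Uncx had 0 UMIs in both basal-like clusters. The smaller apical-like cluster had 3 mature VSN markers raised, and Rtp1 and Gng13 were among its leading genes. The smaller basal-like one had the basal VSN markers Calr4 and Vmn2r1 among its leading genes, with fewer than 3 mature VSN markers raised. The part of maturation within a class in these levels was not tested.

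**Figure D3:**
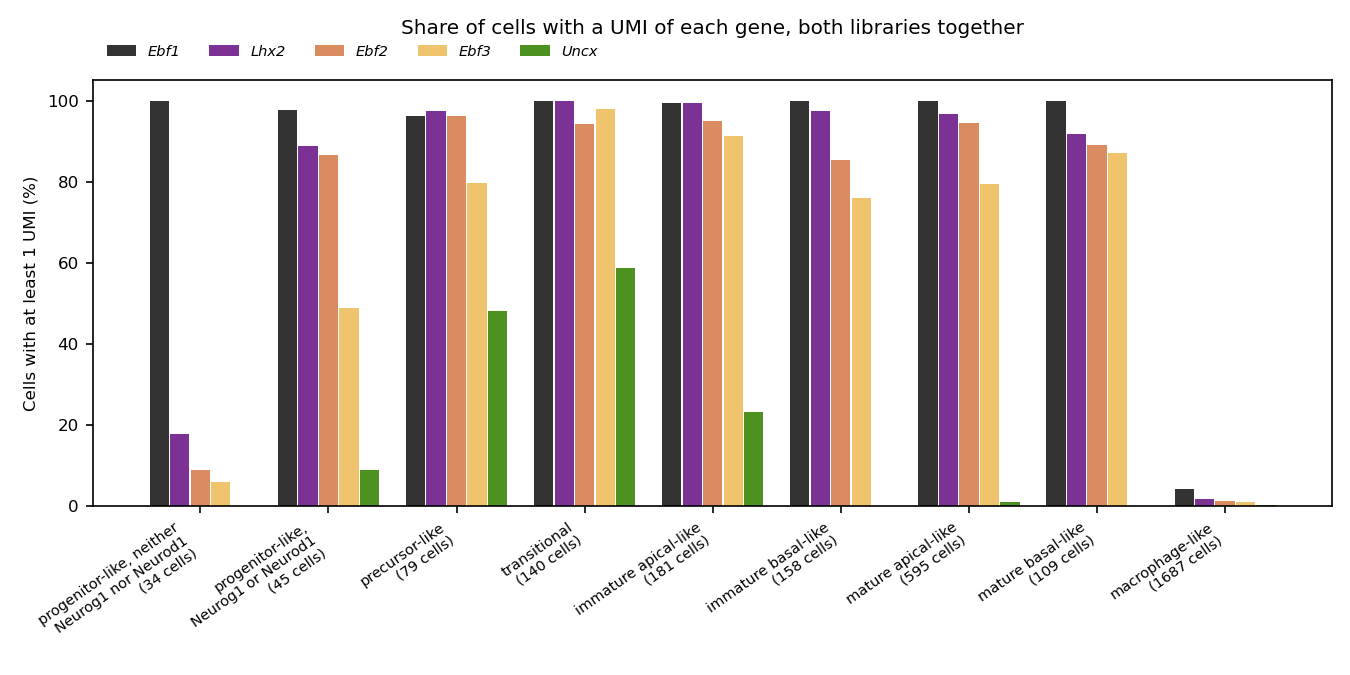
Share of cells with at least 1 UMI of each member except Ebf4 (percent, bars from 0, all UMIs, both libraries together) in each lineage class and in macrophage-like cells, with progenitor-like cells divided by a UMI of Neurog1 or Neurod1. Ebf1 is near 100% in every lineage class, Lhx2, Ebf2 and Ebf3 are low in the 34 progenitor-like cells with neither gene, and Uncx is between 23.2% and 58.6% in precursor-like, transitional and immature apical-like cells and at 0 in both basal-like classes.

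Single cells often carried several of these factors together. A UMI of each of Ebf1, Ebf2, Ebf3 and Lhx2 was found in 29.1% of progenitor-like cells, 79.7% of precursor-like, 92.1% of transitional, 88.4% of immature apical-like and 66.5% of immature basal-like cells. The shares were 73.6% in mature apical-like and 77.1% in mature basal-like cells, which are deeper (median 13511 and 17162 UMIs). At 5000 UMIs per cell the order changed: 10.4%, 55.3%, 77.6%, 64.1%, 42.6%, 27.3% and 19.05% in the same sequence of classes. Transitional cells had the highest share on both counts. Mature apical-like cells had a lower share than immature apical-like cells on both counts, whereas mature basal-like cells had a higher share than immature basal-like cells with all UMIs and a lower one at 5000. At least 3 of the 4 factors were seen in every transitional cell and, after the progenitor-like stage, in at least 92.7% of the cells of each lineage class. At 5000 UMIs per cell 3 or more were seen in 93.4% of precursor-like, 98.5% of transitional, 91.2% of immature apical-like, 84.5% of immature basal-like, 71.9% of mature apical-like and 56.2% of mature basal-like cells.

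**Figure D4:**
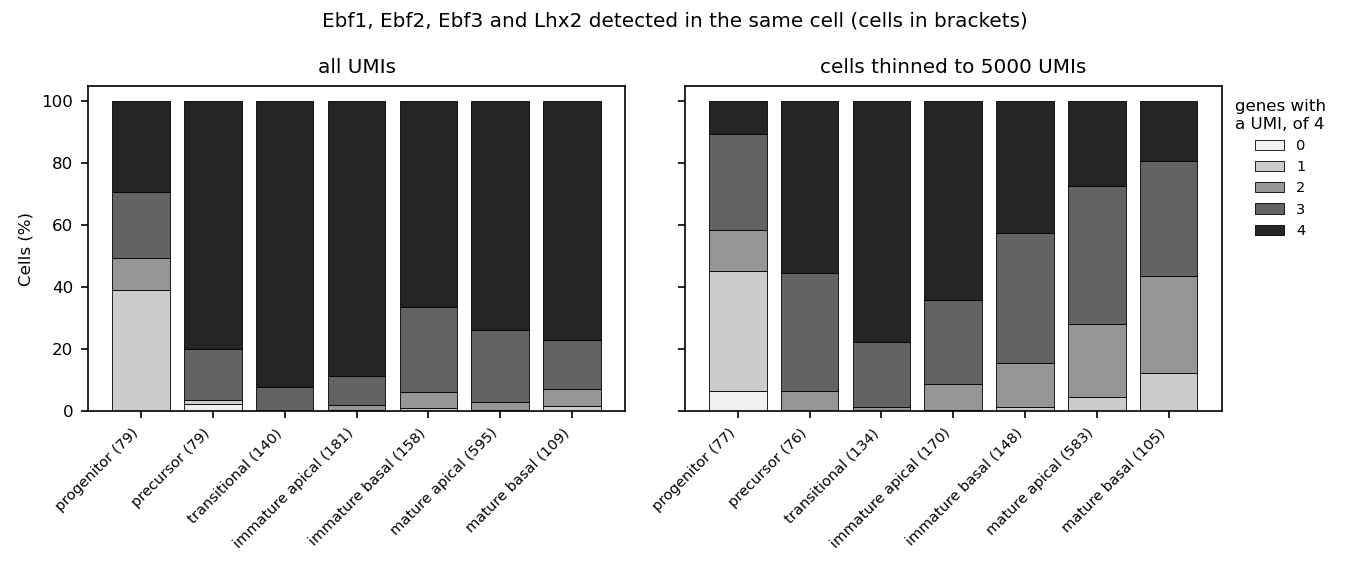
Share of cells (percent) of each lineage class with 0 to 4 of Ebf1, Ebf2, Ebf3 and Lhx2, for all cells and at 5000 UMIs per cell. Cells with all 4 make up 92.1% of transitional cells, and 31 of 79 progenitor-like cells have only 1 of the 4.

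Outside the lineage, the members parted. Ebf1 was within the range of the lineage classes in B cell-like cells (654 and 912 CPM) and at lower levels in stromal-like (249 and 349.6 CPM) and endothelial-like cells (157 and 197 CPM). In macrophage-like cells it was 12.9 and 14.4 CPM, in sustentacular-like cells 16.4 and 21.1 CPM and in basal cell-like cells 5.67 and 7.84 CPM. The share of cells with Ebf1 was 86.5% of 52 B cell-like cells (95% exact interval 74.2 to 94.4), 62.5% of 562 stromal-like cells and 55.8% of 783 endothelial-like cells. In macrophage-like cells, at a median of 4509 UMIs, it was 4.03%, and B cell-like cells had a median of 2369 UMIs. The shares in B cell-like, stromal-like and endothelial-like cells were thus above that in macrophage-like cells, and the source of the low level in other classes was not tested. Against mature VSNs, taken as the mean of both mature classes, Ebf1 in B cell-like cells differed by -0.16 (95% interval -0.51 to 0.18, edgeR adjusted p = 0.595). This comparison depended on the cells kept: at a mitochondrial limit of 10% it was 0.48 (edgeR adjusted p = 0.00737), and with cells thinned to 5000 UMIs, which left 9 of the 52 B cell-like cells, -2.91 (edgeR adjusted p = 7.2e-05).

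The B cell-like class had all 5 of 5 B cell markers, which summed to 4596 and 3886 CPM. It also had 4 of 4 plasma cell markers, which summed to 30049 and 20723 CPM, and the part of plasma cells in the class was not tested. In it Ebf2, Ebf3, Ebf4, Lhx2 and Uncx each had no UMI in the 52 cells, a count that leaves room for a share up to 5.77%. Ebf2, Ebf3 and Lhx2 passed as lower than in mature VSNs, 3 of the 5 members tested, where 14.2% of all genes tested were lower and 22.5% changed. With a floor of 3 UMIs over both B cell-like sums they were at least 17.1-fold, 9.38-fold and 19.5-fold lower (edgeR adjusted p = 3.47e-05, 6.19e-05 and 8e-07). The median over all genes in this comparison was -1.19, so these bounds are to be read against a shift of the whole comparison. Among the cells of the VNO, Ebf1 was thus the member shared by neurons and B cell-like cells.

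In stromal-like cells, a class with raised fibroblast, smooth muscle and pericyte markers, Ebf1 differed from mature VSNs by -1.56 (SE 0.14, edgeR adjusted p = 8.44e-08), Ebf2 by -3.45 (SE 0.23, edgeR adjusted p = 3.93e-09), Ebf3 by -4.01 (SE 0.23, edgeR adjusted p = 7.16e-10) and Lhx2 by -4.27 (SE 0.17, edgeR adjusted p = 1.92e-11). Ebf4 went the other way, at 6.13 (SE 0.88, edgeR adjusted p = 3.54e-05), on 29 UMIs against 1. All 5 members tested passed, 4 lower and 1 higher, where 26.5% of the 16164 genes tested were lower and 32.8% higher (59.3% in all), so passing by itself says little here. The median was -3.45 over the members and 0.14 over all genes. Within the class Ebf1 was uneven: 472 and 617 CPM in a cluster of 165 cells led by Ostn and Vegfd, and 289 and 556 CPM in 106 cells led by Spp1 and Meox2. It was 220 and 327 CPM in 106 cells with 5 smooth muscle and 4 pericyte markers raised, and 83.9 and 69.5 CPM in 116 cells led by Npr3 and Pappa2. The class also held 52 cells with the cartilage genes Snorc and Chad among their leading genes (Ebf1 at 101 and 96.4 CPM) and 17 with the keratin genes Krt14 and Krt5 among theirs (134 and 188 CPM), in which none of these marker lists was raised. Of the 77 Ebf2 UMIs of stromal-like cells, 48 were in the cluster led by Spp1, at 50.3 and 75.8 CPM. The 29 Lhx2 UMIs of the cluster with smooth muscle and pericyte markers came from 4 cells, and the neuronal gene Stmn2 had 148 UMIs in 5 cells of that cluster. The part of neuronal RNA in the stromal Lhx2 level was not tested.

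Ebf4 was low everywhere and highest in stromal-like cells, followed by the immature apical-like cells given above. Stromal-like cells had it in 27 of 562 cells (4.80%), at 6.66 and 6.16 CPM. Basal cell-like cells stood at 1.46 and 1.18 CPM, non-sensory epithelial-like cells at 1.66 and 0.954 CPM and sustentacular-like cells at 1.10 and 1.17 CPM, each in about 1 to 2% of cells (1.09%, 1.51% and 1.42%). Macrophage-like cells had 0 UMIs in 1687 cells. Against mature VSNs Ebf4 was higher in basal cell-like cells (4.20, SE 1.08, edgeR adjusted p = 0.00376, 15 UMIs against 1) and in sustentacular-like cells (3.63, SE 1.36, edgeR adjusted p = 0.0375, 4 UMIs against 1). The latter rests on 4 UMIs and did not pass with DESeq2 (adjusted p = 0.0527), with the library as a block (edgeR adjusted p = 0.0633) or without called doublets (edgeR adjusted p = 0.0794). In the same comparisons Ebf1, Ebf2, Ebf3 and Lhx2 changed by between -6.10 and -5.43 in sustentacular-like and between -7.11 and -5.58 in basal cell-like cells on the log2 scale. All 5 members tested passed in each, 4 lower and 1 higher. Of all genes tested 24.4% were lower and 28.8% higher in sustentacular-like cells (53.2% in all), and 27.7% lower and 34.4% higher in basal cell-like cells (62.1% in all).

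Endothelial-like cells held a second EBF factor. Ebf3 stood at 30.7 and 45.3 CPM and was seen in 160 of 783 cells (20.4%, 95% exact interval 17.7 to 23.4), against 0.948% of macrophage-like cells. Ebf2 (2.94% of cells) and Lhx2 (2.81%) stayed near the shares of classes without these genes. Across the 3 endothelial clusters, Ebf1 was 228 and 264 CPM with Ebf3 at 42.7 and 54.96 CPM in a cluster of 382 cells, and 103 and 150.5 CPM with 22.6 and 40.7 CPM in one of 365. In the third, of 36 cells, Ebf1 was 79.9 and 181 CPM on 9 and 32 UMIs, with Ebf3 at 8.88 and 22.7 CPM on 1 and 4 UMIs. Pecam1 and Cdh5, endothelial markers, stood at 465 and 474 CPM over the class. No test was fitted for endothelial-like cells.

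**Figure D5:**
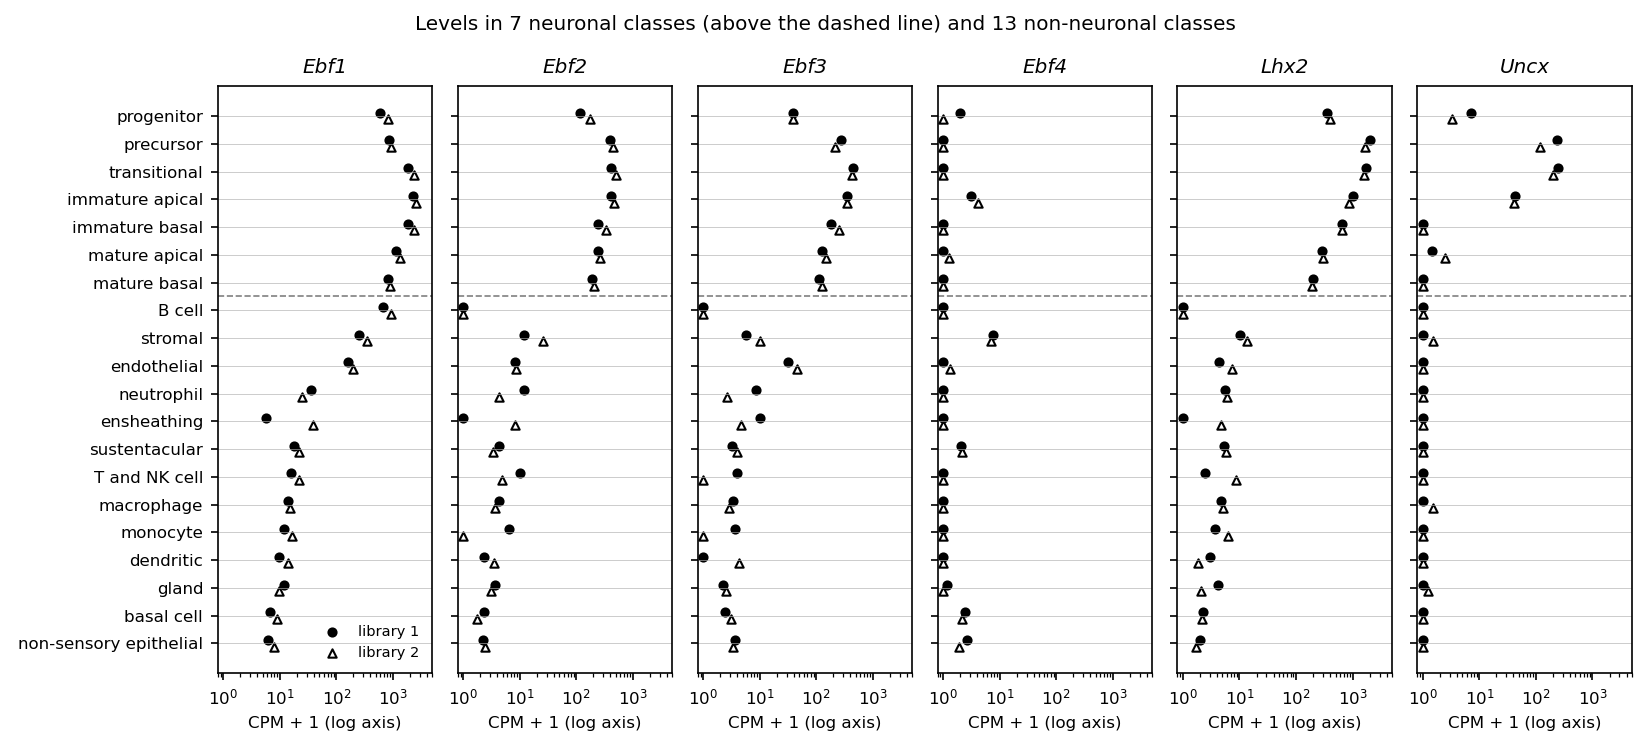
Level of each member (CPM + 1 on a log axis) in all named classes, with 1 point per library and a dashed line between neuronal and non-neuronal classes. Ebf1 is above 100 CPM in the lineage and in B cell-like, stromal-like and endothelial-like cells, whereas Ebf2 and Lhx2 are above 100 CPM only in the lineage and Ebf4 is highest in stromal-like cells.

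Genes that work with these factors were described from lists chosen by name, and these genes were not kept out of the clustering. Of 2 EBF-binding zinc finger proteins, Zfp423 was 9.95 and 13.4 CPM in progenitor-like and 40.4 and 60.8 CPM in precursor-like cells, a rise of 1.97 (SE 0.50, edgeR adjusted p = 0.0121). It was lower in immature than in precursor-like cells (-1.18, edgeR adjusted p = 0.0418) and in mature than in immature basal-like cells (-2.16, edgeR adjusted p = 0.00405). Against mature VSNs it was lower in sustentacular-like (-2.68, edgeR adjusted p = 0.00217) and basal cell-like cells (-1.92, edgeR adjusted p = 0.00209). Zfp521 had 13 UMIs in immature apical-like cells and 0 in immature basal-like and mature cells, and its fall on the apical branch passed (edgeR adjusted p = 0.00223). Its 44 UMIs in stromal-like cells (8.22 and 11.8 CPM) and its 5 in basal cell-like cells also passed against none in mature VSNs (edgeR adjusted p = 8.3e-06 and 0.0365), and no fold is given. Zfp521 stood higher in endothelial-like cells (371 UMIs, 62.2 and 69.4 CPM), for which no test was fitted.

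Of 21 LIM partners and relatives of Lhx2, 10 passed the filter on low counts in the lineage, and the changes given here had an edgeR adjusted p under 0.05. From progenitor-like to precursor-like cells 3 rose and none fell, Ldb1 by 1.10, Lmo4 by 0.89 and Ssbp3 by 1.30, where 6.15% of all genes tested rose and 14.0% changed. From precursor-like to immature cells 4 rose and 1 fell, where 12.6% of all genes rose and 8.71% fell. Those that rose were the LIM-only genes Lmo1 (1.44), Lmo4 (1.10) and Lmo2 and the Ldb1-binding gene Ssbp2 (3.25), and Ssbp3 changed by -1.40. Lmo2, with 1 UMI in precursor-like cells, stood there at 0 and 3.04 CPM, at 59.0 and 68.2 CPM in transitional, 267 and 262 CPM in immature apical-like and 5.59 and 6.405 CPM in mature apical-like cells. In mature against immature apical-like cells 2 rose and 4 fell, where 14.4% of all genes fell and 29.9% changed. Ssbp4 (1.30) and Lmo1 (0.40) rose, and Ldb1 (-0.94), Lmo2 (-5.43), Lmo4 (-2.71) and Ssbp2 (-2.01) fell. On the basal branch 2 rose and 5 fell, where 12.8% of all genes fell and 27.1% changed. Ssbp4 (1.03) and Lmo1 (0.75) rose there, and Ldb1 (-1.49), Lmo2 (-3.72), Lmo4 (-3.62), Ssbp2 (-2.04) and the E3 ligase gene Rlim (-1.03) fell. Ldb1, the cofactor of Lhx2, was thus lower in mature cells on both branches, as was Lhx2. Between the immature branches Lmo1 (0.85) and Lmo2 (1.21) were higher in apical-like and Lmo4 (-1.13) in basal-like cells, where 1.97% of all genes were higher in apical-like cells and 4.08% changed. Between the mature branches Ssbp4 (0.97) and Lmo1 (0.50) were higher in apical-like cells, where 3.48% of all genes were higher and 8.09% changed. Outside the lineage, 11 of the 21 were tested against mature VSNs. In stromal-like cells 5 were higher and 2 lower, in sustentacular-like cells 3 and 5, in basal cell-like cells 5 and 3 and in B cell-like cells 1 and 4, beside the shares of all genes given above for these comparisons.

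The genes whose levels followed each member most closely over the 20 named classes were found by Pearson correlation of log2(CPM + 1) among 15489 genes, as a description with no test, and the classes share libraries and depth. Ebf2 was followed by Fsd1 (r = 0.976), Jakmip2 (0.976) and Rnf182 (0.975), Ebf3 by Stox1 (0.978), Srgap1 (0.965) and Klc1 (0.964), and Lhx2 by Dpysl5 (0.987), Ccdc187 (0.985) and Jakmip2 (0.984). Uncx was followed by Kcnj3 (0.953), Gm45941 (0.918) and 1700001K23Rik (0.913), Ebf4 by Wfikkn2 (0.943), Prcd (0.864) and Col6a4 (0.851), and Ebf1 by Srp19 (0.911), Morn4 (0.906) and Tia1 (0.902). Among the members themselves, Ebf2 and Lhx2 were the most alike (r = 0.987), followed by Ebf2 and Ebf3 (0.961) and Ebf3 and Lhx2 (0.948). Ebf1 stood further off (0.832 with Ebf2), and Ebf4 was unlike all the others (-0.014 to 0.043). Uncx correlated best with Lhx2 (0.757). With log2(CPM + 10), 4 of the 6 members kept at least 2 of their 3 genes, and Ebf3 and Ebf4 kept 1 each (Stox1 and Wfikkn2). Uncx was then followed most closely by Stk33 (0.953) in place of Kcnj3, and Ebf2 by Jakmip2 (0.989), with Fsd1 no longer among its 3.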

How the data were processed

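Cells of 2 libraries from VNOs of wild-type males were captured by droplet chemistry that tags each RNA with a UMI. The authors aligned the reads to mm10 and counted UMIs per gene and barcode with Cell Ranger 4, joined both libraries into 1 matrix with its aggr step and deposited these counts unscaled, and the sources used here do not say whether aggr equalised depth. The submitters' processing notes also name Seurat 3.2.3. Deposited counts are used here as given. Genes in fewer than 3 cells were left out (21823 stayed), and a cell entered with 200 to 9000 genes and no more than 5% of its UMIs from mitochondrial genes. Clustering used Seurat 5.3.0 (30 components, resolution 0.8, and 15 components, resolution 1 within the lineage), with the 6 members kept out of the 2000 variable genes, and clusters were named from marker lists. Scrublet in scanpy 1.11.5 marked 1.194% and 2.123% of cells as doublets, which were kept in the main values. UMIs were summed per class and library, genes with at least 10 UMIs over the sums were kept, and edgeR 4.0.16 (TMM scaling, quasi-likelihood test, Benjamini-Hochberg adjustment over all genes, threshold 0.05) was fitted over all lineage sums, and separately over non-neuronal and mature sums. The lineage fit was first tried on simulated counts with known changes between the immature branches and no library effect. The other comparisons were not simulated. Shares have exact binomial intervals at 95%, and a count of 0 an upper limit of 3 counts, and both cover counting error only. The genes named are the 6 members, genes of the partner lists that passed (given as counts alone for the LIM list outside the lineage, to keep the text on the members), and for each member the 3 genes closest to it in level over classes. The 6 members and the lists were chosen with earlier results of these data known. Same-numbered sums came from the same capture, so the library number pairs them, and deviations from class means correlated weakly between lineage classes (0.00325 to 0.106) and between non-neuronal and mature classes (-0.0395 to 0.175). Alternatives were DESeq2 1.42.0, other filters on low counts, the library as a block, only the classes compared, leaving out a library, a mitochondrial limit of 10%, doublets left out, cells thinned to 5000 UMIs, a lineage resolution of 0.6, the members among the variable genes and stages set by marker UMIs. Sums without TMM, transitional cells counted as precursors and the division of the progenitor-like cells were chosen after seeing the data.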

Additional observations from a re-analysis of the deposited data

Results flagged for a closer look

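The apical-basal difference of the LIM-only gene Lmo4, whose product competes for the Lhx2 cofactor Ldb1, changed between immature and mature neurons by 0.91 on the log2 scale (SE 0.18, edgeR adjusted p = 0.0207, interaction term over 2 libraries). Lmo4 stood at 477 and 499 CPM in immature apical-like cells and at 973 and 1103 CPM in immature basal-like cells. In mature cells it stood at 76.2 and 70.2 CPM (apical-like) and at 87.0 and 77.5 CPM (basal-like). The change from immature to mature cells was -2.71 in apical-like and -3.62 in basal-like cells. It is set apart here because the difference between the branches itself differed between the stages, which none of the 5 members tested showed.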

How the results depend on the processing

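Between the immature branches 2 members passed, and 4 passed with no filter on low counts, with the replicate block, with only the classes compared in the fit, at a mitochondrial limit of 10%, at a lineage resolution of 0.6 and with the members among the variable genes, whereas 1 passed with stages set by marker UMIs. Between the mature branches 2 passed, and 0 passed with DESeq2 and with stages set by marker UMIs. Values that turned sign were Ebf1 between the immature branches (-0.018, marker UMIs), the Lhx2 interaction (-0.0326 with DESeq2 and -0.0732 at a resolution of 0.6), the Ebf2 interaction (0.06, marker UMIs), Ebf2 in immature against precursor-like cells (0.0123, limit of 10%), Ebf3 in the same comparison (-0.36, transitional cells as precursors) and Ebf1 in B cell-like cells (0.48, limit of 10%). The cause was not tested. Of 688 values under alternatives 618 were kept. A tested value was kept if its direction and call stayed, and a single-library value, which has no test, if it lay within the SE of the main fit. Another 33 single-library values moved by more than that SE.

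With the replicate block, Ebf2 and Lhx2 between the immature branches and Ebf3 in immature against precursor-like cells passed, Ebf4 in sustentacular-like cells did not (edgeR adjusted p = 0.0633), and no other call on a member changed. A single library leaves no residual degrees of freedom, so leaving one out gives values with no test. Over these, Ebf1 in precursor-like against progenitor-like cells ranged from -0.03 to 0.35 and the Lhx2 interaction from -0.13 to 0.27, neither of them called. Ebf3 ranged from 0.44 to 0.91 between the immature branches.

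Genes called over the whole table were 580 between the immature branches (1035 with the replicate block, 880 with no filter, 359 by marker UMIs). They were 1152 between the mature branches (2052 with the block, 674 with DESeq2, 635 thinned) and 156 for the interaction (535 with the block, 401 with no filter, 87 thinned, 68 by marker UMIs). For mature against immature cells they were 4255 on the apical branch (2810 with DESeq2) and 3861 on the basal one (2291 thinned). They were 3035 for immature against precursor-like cells (1930 thinned), 1993 for precursor-like against progenitor-like cells (920 thinned, 3595 with transitional cells as precursors) and 3629 for B cell-like cells (1597 thinned). Without TMM the median over all genes went from 0.18 to -0.29 in basal cell-like, from 0.14 to -0.02 in stromal-like and from -1.19 to -1.34 in B cell-like cells, and 39.5% instead of 55.3% of calls were higher in basal cell-like cells. Ebf4, Uncx outside 3 classes and the B cell-like class rest on few UMIs or cells, which limits what could be detected there.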

Other observations

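Cells that no marker list named also carried these genes. A cluster of 305 cells at a median of 27333 UMIs had Ebf1 at 836 and 898 CPM and Lhx2 at 173 and 182 CPM in libraries 1 and 2, with 4 of the mature VSN markers raised. Its leading genes included Meg3 and Svopl, which were also among those of sustentacular-like cells, and whether it mixes cell types was not tested. A shallow cluster of 283 cells (median 1122 UMIs), with 3 of the mature VSN markers raised, had Ebf1 at 955 and 924 CPM. Another of 569 cells (median 1102 UMIs) had Ebf1 at 347 and 458 CPM, with 3 sustentacular and 4 tuft cell markers raised. A cluster of 215 cells, 213 of them in library 1, had Ebf1 at 259 and 0 CPM. In 57 shallow cells of the lineage (median 1048 UMIs) Ebf1 stood at 2063 and 1463 CPM and Lhx2 at 809 and 574 CPM. In another 71 deep cells of the lineage (median 19338 UMIs), Ebf1 was 149.7 and 144 CPM and Lhx2 173 and 83.5 CPM. Their leading genes began with Reg3g and Ly6d, with the epithelial keratin genes Krt5 and Krt14 further down. They had 5 basal cell, 5 non-sensory epithelium, 5 endothelial, 3 sustentacular and 3 progenitor markers raised. Whether these 71 cells mix cell types was not tested. None of these cells entered the values of a named class.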
